A study of Mus musculus with 3 samples.

Results

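Yap1 occupancy was examined at 37 genes that drive DNA synthesis and cell division, in mouse hearts under normal and increased pressure load. The genes were given as a list of cyclins, cyclin-dependent kinases, E2F and Foxm1 transcription factors, replication licensing and DNA synthesis factors, and mitotic and cytokinesis proteins. A gene counted as occupied when the authors' table of Yap1 regions listed its exact symbol for at least 1 region. Such a listing was found for 27 of the 37 genes (73.0%), in 39 of the 22020 regions of the table. Chromatin came from hearts of wild-type C57BL/6J males taken 7 days after sham surgery or after transverse aortic constriction (TAC), in which the aortic arch is narrowed so that the left ventricle works against a higher pressure. The age of the mice is not given in the labels. The design text gives 3 mice per operation, yet there was 1 anti-Yap1 library per operation, and whether each pooled its mice is not stated in the sources used here. The input library came from a pool of both operations without antibody and was not analysed here. Without replicates no difference below could be tested, and each one is a description of these 2 libraries.

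Yap1 is a transcriptional co-activator of the Hippo pathway that has no DNA-binding domain of its own and reaches chromatin mainly through TEAD factors. In the cell cycle, E2F factors switch on the genes of DNA replication, and a later wave of mitotic genes is controlled through the CHR element by the DREAM and B-Myb complexes and by Foxm1, usually together with NF-Y at CCAAT boxes. Adult heart muscle cells rarely divide, and active Yap1 is known to push them back towards the cell cycle in mice. The hearts here hold several cell types, so a region cannot be assigned to one of them, and fewer cells of a type cannot be told apart from less Yap1 per cell.

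Over the regions of the table the TAC library had less signal than the sham library. Of these regions, 96.6% had a call in sham and 48.7% in TAC, so most were chosen where sham had signal. What this choice adds to the ratios was not tested. The signal is the deposited average over a region, so its level and the choice of strongest region can depend on region length. Ratios below are log2((TAC + 1)/(sham + 1)) of this signal, and a gene with several regions is represented by the one with the highest mean of both libraries unless stated. Over all 13464 genes with a region the median ratio was -0.50, and 95.5% of genes were below 0, so the members are read against that median as well as against 0. Read depth and the scaling between libraries are unknown. Of the heart muscle markers, 14 of 14 had a region spanning their start, against 0 of 10 hepatocyte and 0 of 10 neuronal markers, of which 4 and 5 were listed for a region elsewhere.

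Occupancy of the S-phase and mitosis genes was more frequent than that of protein-coding genes at large. Any listed region was found for 73.0% of the 37 members and for 53.2% of 21896 protein-coding genes. A region spanning the gene's own start was found for 18 members (48.6%) and for 37.2% of protein-coding genes. Among occupied genes the share with a region over the start was alike, at 66.7% of the 27 members and 67.1% of all genes with a region. The strongest region held a CpG island for 24 of the 27 (88.9%), beside 72.4% of all genes with a region. All 39 member regions had a call in the sham library, as had 96.6% of all regions. A call in TAC was present for 25 of the 39, beside 48.7% of all regions, which include regions with no listed gene. Read per gene at the strongest region, a TAC call was present for 70.4% of the 27 members and 69% of all genes. By role, 5 of 7 cyclins and Cdks were listed, 5 of 8 licensing genes, 5 of 8 mitotic kinase, checkpoint and chromosome genes, 4 of 5 transcription factors, both Cdc25 phosphatases, 3 of 3 DNA synthesis genes and 3 of 4 spindle and cytokinesis genes. With so few genes per role these shares do not separate the roles.

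Widely used markers of dividing cells were among the 10 genes with no listed region and, like Top2a and Cdk1, among the 27 with one. Absence was less frequent for members than for protein-coding genes, since 73.0% and 53.2% had a region. The 10 genes were the cyclin genes Ccna2 and Ccnb2, the proliferation marker Mki67, the replicative helicase subunits Mcm3, Mcm4 and Mcm6, and the transcription factor E2f1. The others were the mitotic kinase Plk1, the spindle checkpoint kinase Bub1b and the cytokinesis scaffold Anln. The nearest region to the body of these genes lay between 12.1 kb away, for Mki67, and 225 kb away, for Mcm4. Distances were 17.0 kb for Bub1b, 22.9 kb for Anln, 32.6 kb for E2f1 and 39.7 kb for Ccna2. Absence means that the table analysed here lists no called region there, at a read depth that is not known, and not that Yap1 is absent.

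**Figure D1:**
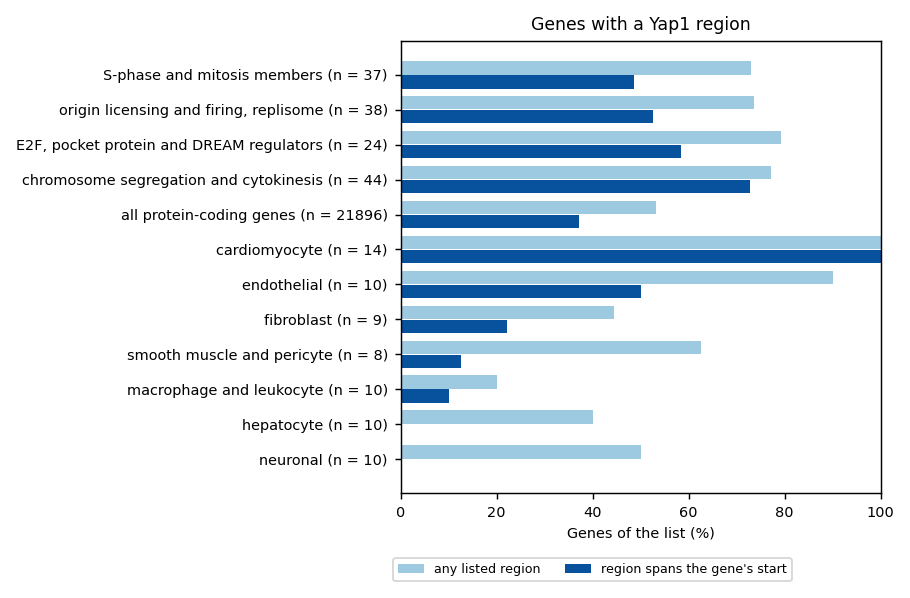
Share of the genes of each list (x axis, percent) with any listed Yap1 region (light bars) and with a region spanning the gene's own start (dark bars), n being the genes in the list. The S-phase and mitosis members reach 73.0% and 48.6%, all protein-coding genes 53.2% and 37.2%, and heart muscle markers 100% in both.

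The promoter sequences of 5 members show what lies under, or is missing from, these regions. They are the 250 bases before the RefSeq start (GRCm38.p6, the assembly of mm10), written 5′ to 3′ along the strand of the gene. Cdk1 and Top2a are the members with more average signal in TAC, Kif11 has the highest TAC signal of the list, Ccne1 is the member with the lowest ratio, and Mki67 has no listed region. Capitals mark matches, on either strand, to an E2F motif (TTTNNCGC), the CHR (TTTGAA), the CCAAT box (CCAAT), a TEAD motif (GGAATG) and an AP-1 motif (TGANTCA). The positions are chr10:69352913-69353162 (minus strand) for Cdk1, chr11:99024190-99024439 (minus) for Top2a, chr19:37376132-37376381 (plus) for Kif11, chr7:38107491-38107740 (minus) for Ccne1 and chr7:135716380-135716629 (minus) for Mki67.
Cdk1: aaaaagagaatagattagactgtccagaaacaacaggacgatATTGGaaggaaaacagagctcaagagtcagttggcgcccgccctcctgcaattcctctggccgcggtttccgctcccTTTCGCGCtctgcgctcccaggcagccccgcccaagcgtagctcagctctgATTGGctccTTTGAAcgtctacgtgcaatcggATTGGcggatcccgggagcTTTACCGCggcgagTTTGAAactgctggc
Top2a: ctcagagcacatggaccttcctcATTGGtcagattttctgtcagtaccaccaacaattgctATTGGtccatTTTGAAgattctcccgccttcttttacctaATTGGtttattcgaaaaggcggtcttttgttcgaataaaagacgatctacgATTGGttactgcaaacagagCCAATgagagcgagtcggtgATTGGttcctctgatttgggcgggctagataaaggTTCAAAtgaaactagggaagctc
Kif11: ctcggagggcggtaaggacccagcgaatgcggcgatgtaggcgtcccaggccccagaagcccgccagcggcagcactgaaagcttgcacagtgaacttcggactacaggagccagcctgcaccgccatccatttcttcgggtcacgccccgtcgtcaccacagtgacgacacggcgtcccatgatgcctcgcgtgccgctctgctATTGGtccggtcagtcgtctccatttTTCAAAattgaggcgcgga
Ccne1: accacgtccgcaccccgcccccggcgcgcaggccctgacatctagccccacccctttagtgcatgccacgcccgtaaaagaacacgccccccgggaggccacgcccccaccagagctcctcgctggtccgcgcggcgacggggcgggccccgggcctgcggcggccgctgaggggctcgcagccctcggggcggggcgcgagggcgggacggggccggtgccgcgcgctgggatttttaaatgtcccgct
Mki67: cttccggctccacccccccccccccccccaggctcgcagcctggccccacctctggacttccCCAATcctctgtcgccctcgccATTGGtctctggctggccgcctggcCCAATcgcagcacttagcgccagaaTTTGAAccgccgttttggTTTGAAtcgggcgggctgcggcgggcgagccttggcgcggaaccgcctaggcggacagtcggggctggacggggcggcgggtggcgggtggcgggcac

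Cdk1 had 2 E2F, 2 CHR and 3 CCAAT matches in these bases. Top2a had 2 CHR and 6 CCAAT matches, and Kif11 had 1 of each. Mki67, with no Yap1 region, had 2 CHR and 3 CCAAT matches, whereas the GC-rich Ccne1 promoter had no match to any of the 5 motifs. These letter matches therefore occurred with and without a Yap1 region at the start.

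Over the whole list the cell cycle elements were frequent and TEAD letters rare. RefSeq promoters of 300 bases (250 before and 50 after the start) were found for 32 of the 37 members, and a gene counted when any of its promoters held the motif. CCAAT boxes were in 26 of 32 members (81.2%) and in 41.1% of all 27025 genes with a promoter sequence. The CHR was in 16 of 32 (50%) against 20.2% of all genes, and the E2F motif in 11 of 32 (34.4%) against 5.93%. A TEAD motif was in 1 of 32 members (3.12%), Mcm3, which has no Yap1 region, against 16.6% of all genes. No member held the AP-1 motif, which was in 8.97% of all genes.

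The same order held when the comparison was limited to genes with a Yap1 region at their start. Of the 16 such members with a promoter sequence, 14 held a CCAAT box (87.5%), 8 a CHR (50%), 7 an E2F motif (43.8%) and 0 a TEAD motif. Of 6595 other genes with a region at their start, 42.6% held a CCAAT box, 12.9% a CHR, 10.4% an E2F motif and 14.7% a TEAD motif. The cell cycle elements were also in members without any region. Of 8 such members, 6 held a CCAAT box, 5 a CHR, 2 an E2F motif and 1 a TEAD motif. Members without any region did not have CpG-poor promoters, with a median of 23 CpG dinucleotides per 300 bases over 8 genes, next to 24.5 for the 16 members with a region at their start. All genes with a promoter sequence had a median of 7. Only 1 pair of matches to different motifs overlapped among the 103 matches in member promoters. A missing match says that these letters are not in this window, and the regions are longer than the window.

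**Figure D2:**
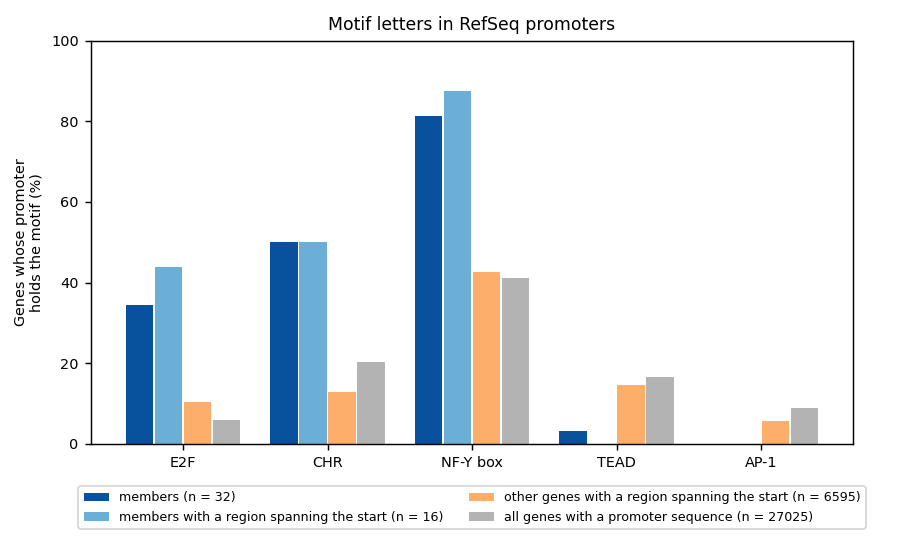
Share of genes whose 300-base RefSeq promoter holds each motif (y axis, percent), for all 32 members with a sequence, the 16 members with a Yap1 region spanning their start, 6595 other genes with such a region, and all 27025 genes; the NF-Y box is the CCAAT motif. Members exceed both gene backgrounds for E2F, CHR and NF-Y letters (81.2% against 41.1% of all genes for the latter) and lie below them for TEAD letters (3.12% against 16.6%).

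Regions at the start of a gene and regions listed because they lie near it were kept apart, since many listings came from a neighbour. A region spanned a start when the authors' distance from its midpoint to that start was at most its length divided by 2. Of the 39 regions, 18 spanned the start of the member. Of the other 21, 14 spanned the start of a different gene. The strongest region was shared with another listed gene for 20 of the 27 occupied members (74.1%), beside 64.9% of all genes with a region. A region listed for no other gene was found for 8 members: Cdk1, Ccne1, Top2a, Cdc6, Cdc25a, Rrm2, E2f3 and Kif11. No region came within 1 kb of the start for 8 members: Pcna, E2f2, E2f8, Foxm1, Cdc25b, Aurka, Bub1 and, again, Cdc6. A region did so for 19 of the 27 occupied members, beside 8643 of 11647 protein-coding genes with a region. For regions at the start of a different gene, and for regions listed for no other gene, the share over all genes was not taken.

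The 8 members without a region near their start illustrate a looseness of the listing that is not particular to them. The regions listed for Pcna, the sliding clamp of DNA polymerase, span the starts of Tmem230 and Cds2. That for Aurka, a centrosomal mitotic kinase, spans the start of Fam210b, 23.7 kb from the start of Aurka. The Bub1 region lies at the start of 1500011K16Rik, 38.9 kb away, and the E2f2 region at the start of Asap3, 33.4 kb away. Foxm1 was listed for a region at the start of Tulp3, 6.44 kb upstream. Cdc6, which loads the replicative helicase, had its strongest region over the start of its neighbour Rara, the gene of a retinoic acid receptor. For these genes the values below describe chromatin near the gene and not its promoter.

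**Figure D3:**
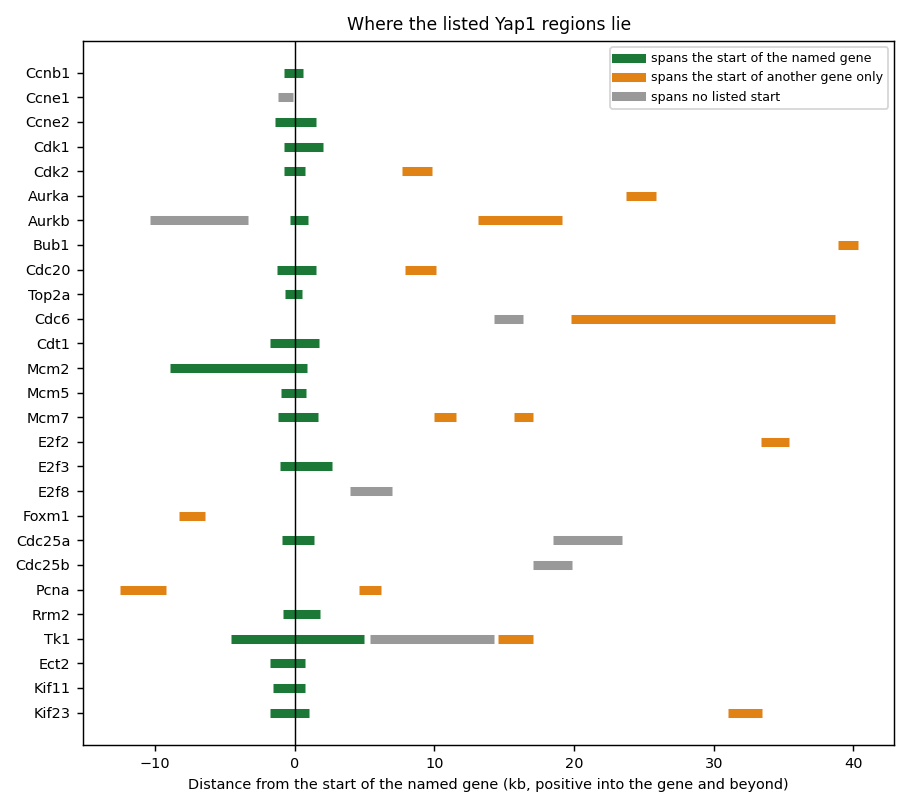
Extent of each listed Yap1 region (bars) relative to the start of the named gene (x axis, kb; positive values run into the gene and beyond it), with 1 line per occupied member. Of 39 regions, 18 span the start of the named gene, 14 span only the start of another gene, and the other 7 span no listed start.

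Cyclins and Cdks held both the highest and the lowest ratio of the list. Cdk1, the kinase that drives entry into mitosis, had an average signal of 7.44 in sham and 9.36 in TAC (ratio 0.30, 1.23-fold higher in TAC). Its region on chromosome 10, from 69350910 to 69353667, spans the start, holds a CpG island and was called in both libraries. Cdk1 was the only member at least 1.5-fold higher relative to the median of all genes (by 0.79), as were 2.76% of all genes, and it lay at percentile 99.0 of all ratios. The maximum signal within the region was 23 in both libraries, so the higher TAC value was in the average and not at the summit. Its sham signal was the lowest of any occupied member's strongest region, and genes in the same of 10 equal classes of mean signal had a median ratio of -0.45.

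Ccne1, the cyclin that activates Cdk2 at the start of S phase, stood at the other end. Its region on chromosome 7, from 38107598 to 38108670, ends 108 bp upstream of the start. The signal was 15.2 in sham and 8 in TAC (-0.85, 1.81-fold higher in sham), with maxima of 30 and 13 and a call in sham only. Ccne2, its close relative, had 8.37 and 5.41 (-0.55) at its start, called in sham only and among the weakest signals of the list. Ccnb1, the mitotic cyclin partner of Cdk1, had 8.51 and 6.29 (-0.38) over its start, in a region called in sham only. Cdk2 shows how the choice of region matters. At its own start, in a region called in sham only, the signal was 10.9 in sham and 9.58 in TAC (-0.17). The strongest listed region, at the start of Rab5b and called in both libraries, had 15.8 and 10.2 (-0.59).

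The Cdc25 phosphatases, which remove the inhibitory phosphates from Cdks, were close to the median of all genes. Cdc25a had 12.4 in sham and 8.52 in TAC (-0.49) over its start and 10.9 and 8.02 (-0.40) in a region downstream. Cdc25b had 12.1 and 7.96 (-0.55) in a region 17.0 kb from its start.

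Of the transcription factors, E2f3 alone had a region at its start. E2f3, an activator E2F, had 13.8 in sham and 9.69 in TAC (-0.47). This region has a call in both libraries (chromosome 13, from 29983378 to 29987126). E2f2, another activator E2F, had 11.6 and 8.95 (-0.34) at the neighbouring start, and Foxm1, which activates mitotic genes, had 10.2 and 8.88 (-0.18). The repressor E2f8 had a weak region inside the gene, with 8.60 and 4.99 (-0.68), called in sham only.

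The strongest signal of the list lay at a licensing gene, Mcm7, again in shared chromatin. Cdt1 and Cdc6 load the Mcm2 to Mcm7 helicase onto replication origins before S phase. The Mcm7 region on chromosome 5, from 138170173 to 138173039, had 24.4 in sham and 15.2 in TAC (-0.65), with maxima of 87 and 53, and spans the starts of both Mcm7 and Ap4m1. The table also lists the microRNA genes Mir25, Mir93 and Mir106b, which lie inside Mcm7, for this region. Its other 2 regions, at the starts of Cops6 and Zfp113, were weaker, with ratios of -0.24 and -0.13, the latter called in sham only. Mean signal at the Mcm7 start was at percentile 98.3 of all genes.

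Cdt1 had 16.7 in sham and 10.9 in TAC (-0.58), just short of the 1.5-fold size. Mcm2 had 14.7 and 11.4 (-0.34) in a region of 9803 bp that also covers the start of Tpra1. Mcm5 had 10.6 and 7.62 (-0.42) at its start, called in sham only. Cdc6 had 16.5 and 11.7 (-0.47) at Rara and 8.03 and 6.65 (-0.24) inside the gene, the latter called in sham only. As deposited, all 5 occupied licensing genes had less signal in TAC, within the range of ratios common to all genes.

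The DNA synthesis genes were split. Rrm2, the regulatory subunit of ribonucleotide reductase, had 12.6 in sham and 10.4 in TAC (-0.25) over its start. Tk1, a salvage enzyme for thymidine, had 11.2 and 9.16 (-0.26) over its start, 19.1 and 10.2 (-0.84) in the strongest listed region at Syngr2, and 10.5 and 7.08 (-0.51) in the region between them. Pcna had 10.8 and 10 (-0.10) at Tmem230 and 12.4 and 7.60 (-0.64) at Cds2. The Tk1 region over its start and the Pcna region at Tmem230 were called in both libraries, and the other regions of these genes in sham only. For Tk1 and Pcna the ratio therefore depended on which listed region was read.

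Mitotic genes with a region were near or above the median of all genes in ratio. Top2a, the topoisomerase that untangles replicated chromosomes, had 7.78 in sham and 8 in TAC (0.04) at its start, where the region has a call in both libraries (chromosome 11, from 99023688 to 99024885). It was 0.53 above the median of all genes, under the 1.5-fold size, and its maximum was 14 in sham and 12 in TAC. Top2a and Cdk1 were the only members with more average signal in TAC, as were 4.48% of all genes. Cdc20, an activator of the anaphase-promoting complex, had 9.14 and 7.24 (-0.30) over its start and 12.2 and 9.94 (-0.27) at Elovl1. Aurkb, the kinase of the chromosomal passenger complex, had 12.2 and 8.44 (-0.48) over its start, in a region called in sham only. Its other 2 regions had ratios of -0.38, called in both libraries, and -0.48, called in sham only. Bub1 had 10.8 and 8.46 (-0.32) and Aurka 13.7 and 9.30 (-0.52), both at neighbouring starts, with the Aurka region called in sham only.

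The 3 occupied spindle and cytokinesis genes, of 4, each had a region at their own start, and Anln had none. Kif11, the kinesin that pushes spindle poles apart, had 17.5 in sham and 15.9 in TAC (-0.13), with maxima of 54 and 44. This region on chromosome 19, from 37374877 to 37377143, had the highest TAC signal of any member and was listed for Kif11 alone. Kif23, a kinesin of the central spindle, had 9.81 and 9 (-0.11) over its start and 16.9 and 11.7 (-0.49) at the start of the ribosomal protein gene Rplp1. Ect2, an exchange factor that starts cleavage furrow formation, had 10.2 and 7.33 (-0.43).

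**Figure D4:**
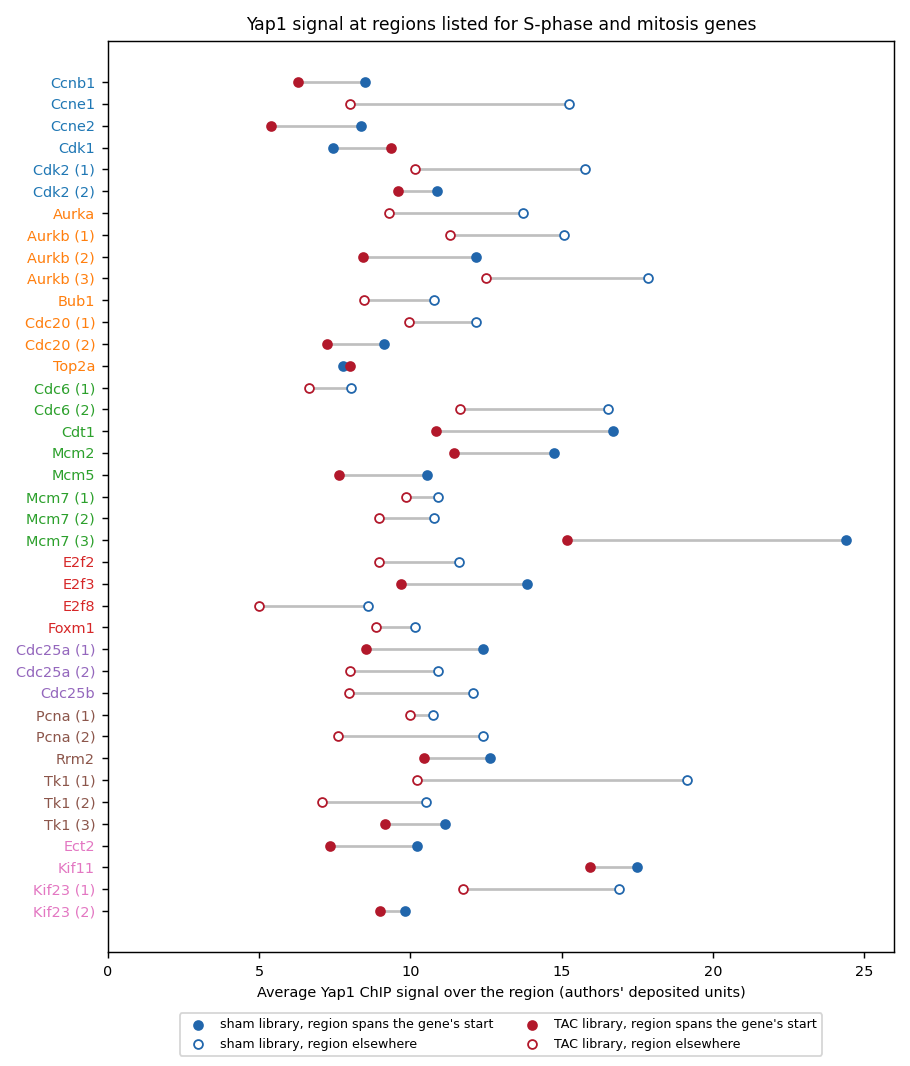
Average Yap1 signal (x axis, authors' deposited units) in the sham and TAC libraries at each of the 39 regions, named by member and coloured by role, with regions of 1 gene numbered in genome order; filled points are regions spanning the gene's own start. Cdk1 (7.44 to 9.36) and Top2a (7.78 to 8) are the only regions where the TAC point lies to the right.

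As a group the members had a median ratio close to that of all genes when each was represented by its strongest region. It was -0.47 over 27 members (95% order-statistic interval over genes -0.55 to -0.32). The interval treats the listed genes as a sample and does not measure variation between mice. The members' median was 0.03 above the median of all genes. With other pseudocounts, maximum signal, quantile normalization, regions with a promoter or stronger regions only, this difference lay between 0.014 and 0.043. It was 0.095 with the mean over all regions of a gene. The difference was 0.15 with the region nearest the start and 0.13 with regions called in both libraries. Over the 8 members with a region listed for them alone it was 0.27. After quantile normalization of the libraries the medians were 0.037 for members and 0.0037 for all genes, so the direction as deposited rests on the scaling of the libraries. Signal was 7.44 to 24.4 in sham, with a median of 12.4, and 4.99 to 15.9 in TAC, with a median of 9.36; the medians over all genes were 13.1 and 9.31. Of the 27, 18 lay above the median of all genes and 9 below. At least 1.5-fold lower as deposited were 5 members (18.5%): Ccne1, Tk1, E2f8, Mcm7 and Cdk2, beside 36.3% of all genes. None was 1.5-fold higher as deposited, beside 0.208% of all genes, and none 1.5-fold lower relative to the median, beside 1.05%. The strongest region was called in TAC for 19 members (70.4%), close to the 69% of all genes.

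At their own starts the members had a higher median ratio than all genes at theirs, a difference that could not be tested. This comparison was chosen after seeing the data, and median ratios at the starts of the related genes were not taken. The 18 regions had a median ratio of -0.36, from median signals of 11.0 (sham) and 9.08 (TAC). All 9035 genes with such a region had -0.48, from 12.9 and 9.24, and 5 of the 18 members lay below this value. At least 1.5-fold lower was 1 of the 18, Mcm7, beside 32.9% of all such genes. A call in TAC was present for 13 of the 18, beside 68.2% of all such genes. A CpG island lay in 17 of the 18 regions (94.4%), beside 86.7%. The 21 other regions had a median ratio of -0.47, beside -0.54 for all regions listed away from a gene's start. Across the 27 members the signal of the libraries had a Spearman correlation of 0.80, beside 0.73 across all genes, which share both libraries and are not replicates.

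**Figure D5:**
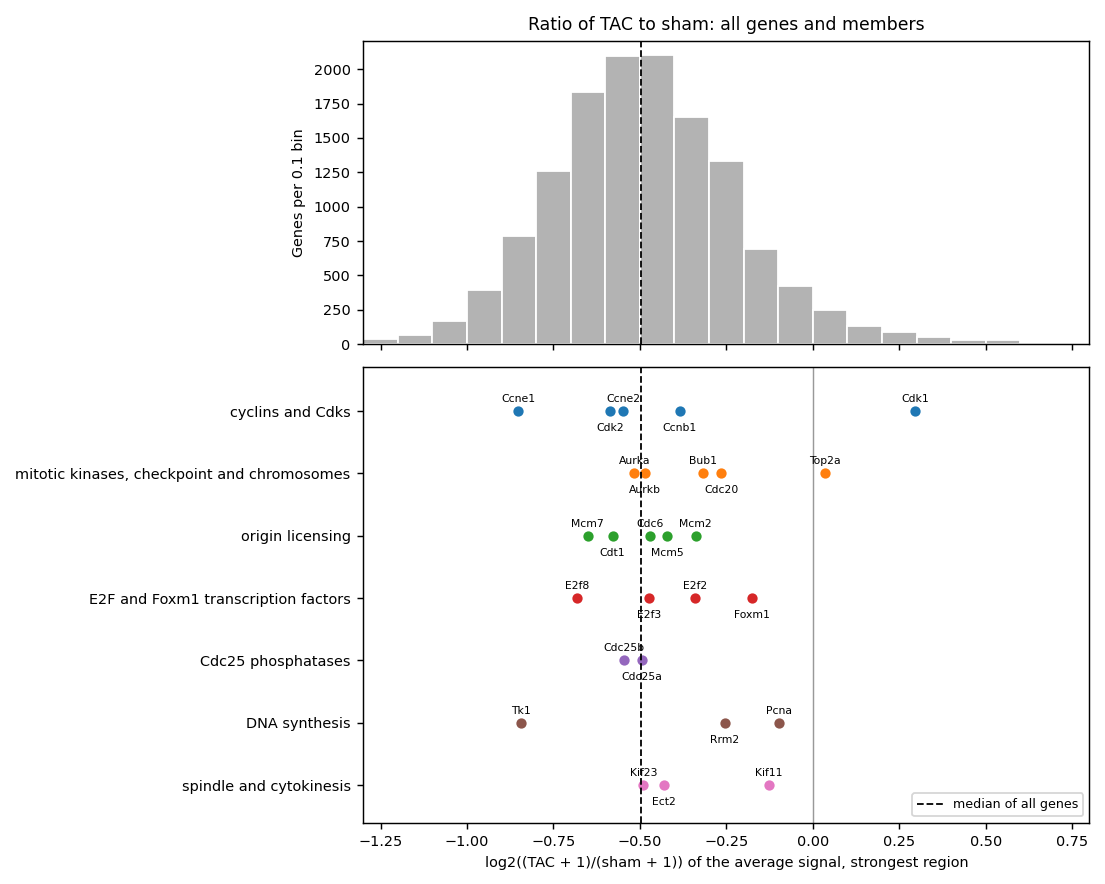
log2 ratio of TAC to sham (x axis) for all 13464 genes, as a histogram whose outermost genes lie beyond the axis, and for the 27 occupied members by role, each at its strongest region; the dashed line is the median of all genes (-0.50). Ccne1 (-0.85) and Tk1 (-0.84) are lowest, and Top2a (0.04) and Cdk1 (0.30) highest.

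Cell type marker lists had unequal ratios between the libraries, and their part in the members' ratios was not tested. The 14 heart muscle markers had a median ratio of -0.80, from median signals of 14.9 in sham and 8.34 in TAC, and all 14 lay below the median of all genes. Listed endothelial markers had a median ratio of -0.37 (9 of 10 genes), fibroblast markers -0.30 (4 of 9), smooth muscle and pericyte markers -0.29 (5 of 8), and macrophage and leukocyte markers -0.81 (2 of 10). The lists foreign to the heart were low as well, at -0.75 for hepatocyte (4 of 10) and -0.60 for neuronal markers (5 of 10), in regions away from their starts. The members' median was -0.47.

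Another 106 genes of replication and division, in 3 lists, were set beside the members. A region was listed for 81 of them (76.4%), beside 73.0% of members and 53.2% of protein-coding genes. A region over the start was found for 66 (62.3%), beside 48.6% and 37.2%. The chromosome segregation and cytokinesis list had regions for 34 of 44 genes, 32 of them (72.7% of the list) at the start. Its median ratio was -0.41, with 24 of 34 above the median of all genes. The origin and replisome list had 28 of 38 genes, 20 at the start, and a median of -0.48. The E2F, pocket protein and DREAM list had 19 of 24 genes, 14 at the start, and a median of -0.60. At least 1.5-fold lower as deposited were 10 of its 19 genes with a region. In the origin and replisome list these were 9 of 28, and in the chromosome segregation and cytokinesis list 8 of 34. Over the 3 lists together they were 27 of 81, beside 36.3% of all genes. No gene of these lists was 1.5-fold higher as deposited.

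Ratios of the 81 genes with a region in these lists ran from -1.29 to 0.09, beside -0.85 to 0.30 for the 27 members. They reached lower than the members, through more genes, and not as high. Cenpe, a kinetochore kinesin, had the highest ratio, with 7.58 in sham and 8.15 in TAC (0.09) at its start, and its maxima were 17 and 15. Fbxw7, the ubiquitin ligase subunit that targets cyclin E, had 14.6 and 15.5 (0.08) just upstream of its start. Rrm1, the large subunit of ribonucleotide reductase, had 11.1 and 11.3 (0.03), and the replication protein A subunit Rpa3 had 11.8 and 12.1 (0.03), both over their starts. Lowest was Cenpf, a kinetochore protein, with 11.4 and 4.05 (-1.29) in a region upstream of its start, and maxima of 39 and 10. Gins1, a subunit of the replicative helicase complex, had 13.3 and 6.32 (-0.97), and the clamp loader subunit Rfc1 had 8.18 and 3.92 (-0.90). Both the E2F partner Tfdp2 (23.8 and 12.3, -0.90) and the pocket protein Rbl2 (20.4 and 11.6, -0.76) carried strong sham signal over their starts. The other genes named by the same rule were Spc24 (-0.76), Kif4 (-0.08) and E2f4 (-0.28).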

How the data were processed

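Yap1 was mapped by chromatin immunoprecipitation and sequencing (ChIP-seq) in 1 sham and 1 TAC library of mouse heart. Reads were aligned with BWA and regions called with MACS 1.4.2 on mm10, per the submitters' processing notes. The deposited signal values are, per the file headers, the average and the highest signal over each of 22020 regions merged from 32930 called intervals, with a mark for a call in each library, the listed genes, and distance to the start. The sources used here do not give the signal scaling, peak threshold, fragment length or read depth, so no counting interval could be given, and a ratio carries any difference in depth.

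Here, members were matched by exact symbol; all 37 are current RefSeq symbols. Ratios used a pseudocount of 1, which understates differences of weak regions, and genes were counted past 1.5-fold. Genes outside the list were matched by symbol or unique synonym (2 of 106 by synonym). Distances run from the midpoint of a region, which was checked for members against RefSeq gene ends (28 of 39 within 100 bp). Computation used Python 3.11.15, pandas 2.3.3, numpy 2.4.6 and scipy 1.17.1, and the ratio and count steps were tested on simulated data. All 37 members are named, with the 2 highest and 2 lowest ratios of each related list. Members and lists were chosen with earlier results of these data known.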

Additional observations from a re-analysis of the deposited data

How the results depend on the processing

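No paired analysis was possible because there is 1 library per operation. The median ratio of the members stayed between -0.50 and -0.34 under the other settings, but was -0.25 over the 8 members with a region listed for 1 gene and 0.037 after quantile normalization, where the median of all genes was 0.0037; the difference from all genes was 0.27 in the former. The count of members at least 1.5-fold lower as deposited, 5, was 2 with a pseudocount of 5, 9 by maximum signal, 3 with the region nearest the start, 2 with the mean over all regions of a gene, 1 with regions listed for 1 gene, 0 after quantile normalization, 2 with regions called in both libraries, 1 with regions that span the start and 0 at 2-fold. After quantile normalization 2 members, Cdk1 and Top2a, were 1.5-fold higher on either scale. Shares of all genes past 1.5-fold were taken under the main settings only. These recounts therefore have no background beside them and do not set the members apart. The 1 member higher relative to the median became 0 with a pseudocount of 5, by maximum signal, with stronger regions only and at 2-fold; by maximum signal 1 was lower. Of the 27 occupied members, 8 had a region listed for them alone. None of the 5 members at least 1.5-fold lower as deposited changed sign under any setting. Other members did, such as Aurkb, from -0.48 to 0.045 after quantile normalization, and Top2a, from 0.04 to -0.21 by maximum signal. The spanning setting was chosen after seeing the data. The cause of these differences was not tested.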
